A study of Homo sapiens with 24 samples.

Results

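The 9 cytokine genes IL1A, IL1B, IL1RN, IL18, IL6, IL11, LIF, IL23A and IL32 were followed in 24 RNA-seq libraries of 2 human esophageal adenocarcinoma cell lines. They are 9 of the 58735 genes of the count table. The genes were chosen by name, with earlier results of these data known. The rule itself used no measured value other than the total read count, to decide between gene IDs that share a name, and no name had more than 1 ID. The lines were OE33 and SK-GT-4, both established lines. Each line was present as a Cas9 control clone, which expresses Cas9 and has cGAS (labelled cGAS WT), and as a cGAS KO clone, in which CGAS was disrupted with CRISPR-Cas9. Both clones were kept for 48 hours in the diluent DMSO or in 500 nM reversine, which blocks the mitotic kinase MPS1 (MPS1i) and is used to make chromosomes missegregate. There were 8 groups with 3 libraries each, prepared in batches 1, 2 and 3, and nothing in the labels gives more than 1 clone for a line and genotype. Differences between a KO and a Cas9 clone therefore cannot be told apart from differences between clones. The p-values rest on the spread of libraries left after group and batch, estimated over all libraries fitted together, and not on a spread between clones. In RNA from whole cultures, fewer cells that express a gene and less RNA per cell cannot be told apart.

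cGAS senses DNA outside the nucleus and, through STING, can switch on interferon and NF-κB target genes, among them several cytokines that carcinoma cells release. IL-1α and IL-1β act on the same IL-1 receptor, IL1RN encodes the antagonist that occupies this receptor without signalling, and IL-18 has a receptor of its own. IL-1β and IL-18 are made as precursors that caspase-1 cuts in inflammasomes. IL-6, IL-11 and LIF share the receptor chain gp130 and signal through JAK kinases and STAT3, IL23A encodes the p19 chain that forms IL-23 together with the p40 chain of IL12B, and IL-32 is a cytokine of epithelial and lymphoid cells with no close relative. mRNA counts show neither the cleavage of a precursor nor the release of a protein.

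The stretches before the start sites of IL6, IL11, IL23A and IL32 are shown because each was called between lines or clones, and those of IL1A and IL1B because these neighbouring genes varied together. IL1RN was also called between lines, and its 3 RefSeq entries are described by their matches. They are the 250 bases upstream of RefSeq start sites (GRCh38.p14), which held an entry for 7 of the 9 genes. IL18 and LIF, which were also called between lines or clones, had no entry. Capitals mark matches, on either strand, to the NF-κB consensus, to the AP-1 site TGANTCA, to the STAT site TTCNNNGAA or to the interferon-response element GAAANNGAAA.
IL6 (chr7:22726950-22727199, plus strand): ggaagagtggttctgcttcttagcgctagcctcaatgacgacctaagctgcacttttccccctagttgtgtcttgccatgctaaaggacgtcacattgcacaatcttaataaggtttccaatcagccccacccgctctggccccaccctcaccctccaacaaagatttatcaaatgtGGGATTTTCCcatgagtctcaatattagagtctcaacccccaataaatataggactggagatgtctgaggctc
IL11 (chr19:55370464-55370713, minus strand): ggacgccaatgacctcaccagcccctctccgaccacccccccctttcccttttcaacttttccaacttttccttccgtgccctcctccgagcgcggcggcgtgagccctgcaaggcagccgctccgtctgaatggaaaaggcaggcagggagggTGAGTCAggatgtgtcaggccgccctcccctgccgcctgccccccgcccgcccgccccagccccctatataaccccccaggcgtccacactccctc
IL23A (chr12:56338634-56338883, plus strand): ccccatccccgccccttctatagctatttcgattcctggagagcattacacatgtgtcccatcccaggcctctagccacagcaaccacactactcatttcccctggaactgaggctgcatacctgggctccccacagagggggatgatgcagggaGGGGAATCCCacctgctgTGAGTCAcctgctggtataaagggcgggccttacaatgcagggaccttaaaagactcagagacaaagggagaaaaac
IL32 (chr16:3065153-3065402, plus strand): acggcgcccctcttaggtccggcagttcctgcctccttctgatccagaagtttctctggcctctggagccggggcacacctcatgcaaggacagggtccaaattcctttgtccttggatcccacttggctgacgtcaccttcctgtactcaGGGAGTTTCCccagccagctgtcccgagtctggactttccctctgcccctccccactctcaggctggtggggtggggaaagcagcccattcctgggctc
IL1A (chr2:112784494-112784743, minus strand): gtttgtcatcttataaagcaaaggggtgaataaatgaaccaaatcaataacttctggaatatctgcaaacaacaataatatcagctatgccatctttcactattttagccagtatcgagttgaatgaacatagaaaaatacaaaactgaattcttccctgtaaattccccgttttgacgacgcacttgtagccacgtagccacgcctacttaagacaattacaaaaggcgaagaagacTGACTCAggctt
IL1B (chr2:112836780-112837029, minus strand): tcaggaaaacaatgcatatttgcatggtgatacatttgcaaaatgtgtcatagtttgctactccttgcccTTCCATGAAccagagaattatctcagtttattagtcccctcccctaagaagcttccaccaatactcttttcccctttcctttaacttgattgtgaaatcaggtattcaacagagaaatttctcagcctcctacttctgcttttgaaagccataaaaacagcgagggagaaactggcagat

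The match in IL6 (at -73 to -64 from the start site) and that in IL32 (-99 to -90) are to the NF-κB consensus. IL23A holds an NF-κB match (-95 to -86) and an AP-1 match (-77 to -71). The matches in IL11 (-96 to -90) and in the IL1A entry shown (-12 to -6) are to AP-1, and that in IL1B (-180 to -172) is to the STAT site. RefSeq gives a second start site for IL1A and for IL32. The 250 bases before that of IL1A (chr2:112784401-112784650) overlap the entry shown and hold AP-1 matches at -105 to -99 and at -55 to -49. The former is the same site as that at -12 to -6 in the entry shown, and the latter lies after the start site of the entry shown. The 250 bases before the second start site of IL32 (chr16:3065534-3065783) hold no match to the 4 motifs. Of the 3 IL1RN entries, 1 holds an AP-1 match (-223 to -217) and the other 2, which overlap, hold the interferon-response element at -122 to -113 and at -231 to -222. Of 35116 RefSeq promoter entries of 300 bases, which add the 50 bases after the start site, 7.73% hold the NF-κB consensus, 7.71% the AP-1 site, 7.66% the STAT site and 3.57% the interferon-response element. A match is a description of the letters and not a shown binding site.

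The libraries held 15561268 to 25284177 counts, so that the floor of 3 counts used here corresponds to 0.112 to 0.195 CPM, the read count relative to the library's total after TMM scaling (edgeR's scaling for composition). CGAS was at 28.9 to 41.6 CPM in OE33 Cas9 and 14.7 to 26.1 in SK-GT-4 Cas9 libraries, and at 2.22 to 6.09 CPM in KO libraries except 1. That library, OE33 cGAS KO in DMSO of batch 2, had 15.6 CPM of CGAS, so fitted effects within OE33 that are given singly and rest on it are also given without it. The TMM factor was 0.770 in SK-GT-4 cGAS KO in DMSO of batch 1, against 0.904 to 1.13 elsewhere. All 5 epithelial markers (EPCAM, CDH1, KRT8, KRT18, KRT19) were expressed in every group, with a summed level of 16300 to 22540 CPM in OE33, 3678 to 8637 in SK-GT-4 Cas9 and 9022 to 19360 in SK-GT-4 KO libraries. The T cell marker CD3E was at or below the floor in all libraries, and the sum of 7 leukocyte markers was 2.26 to 34.6 CPM, of which CD14 took 1.33 to 34.5. The sum of 7 stromal markers was 0.446 to 7.36 CPM for OE33 and 10.1 to 85.2 for SK-GT-4, where COL1A1 took 3.04 to 71.6. Mitochondrial transcripts took 5.10% to 8.94% of counts in batch 3 of OE33 against 1.34% to 2.31% in its batches 1 and 2, and 1.21% to 1.64% in batch 1 of SK-GT-4. In batches 2 and 3 of SK-GT-4 they differed by clone, with 2.25% to 3.94% in Cas9 and 5.66% to 11.3% in KO libraries.

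**Figure D1:**
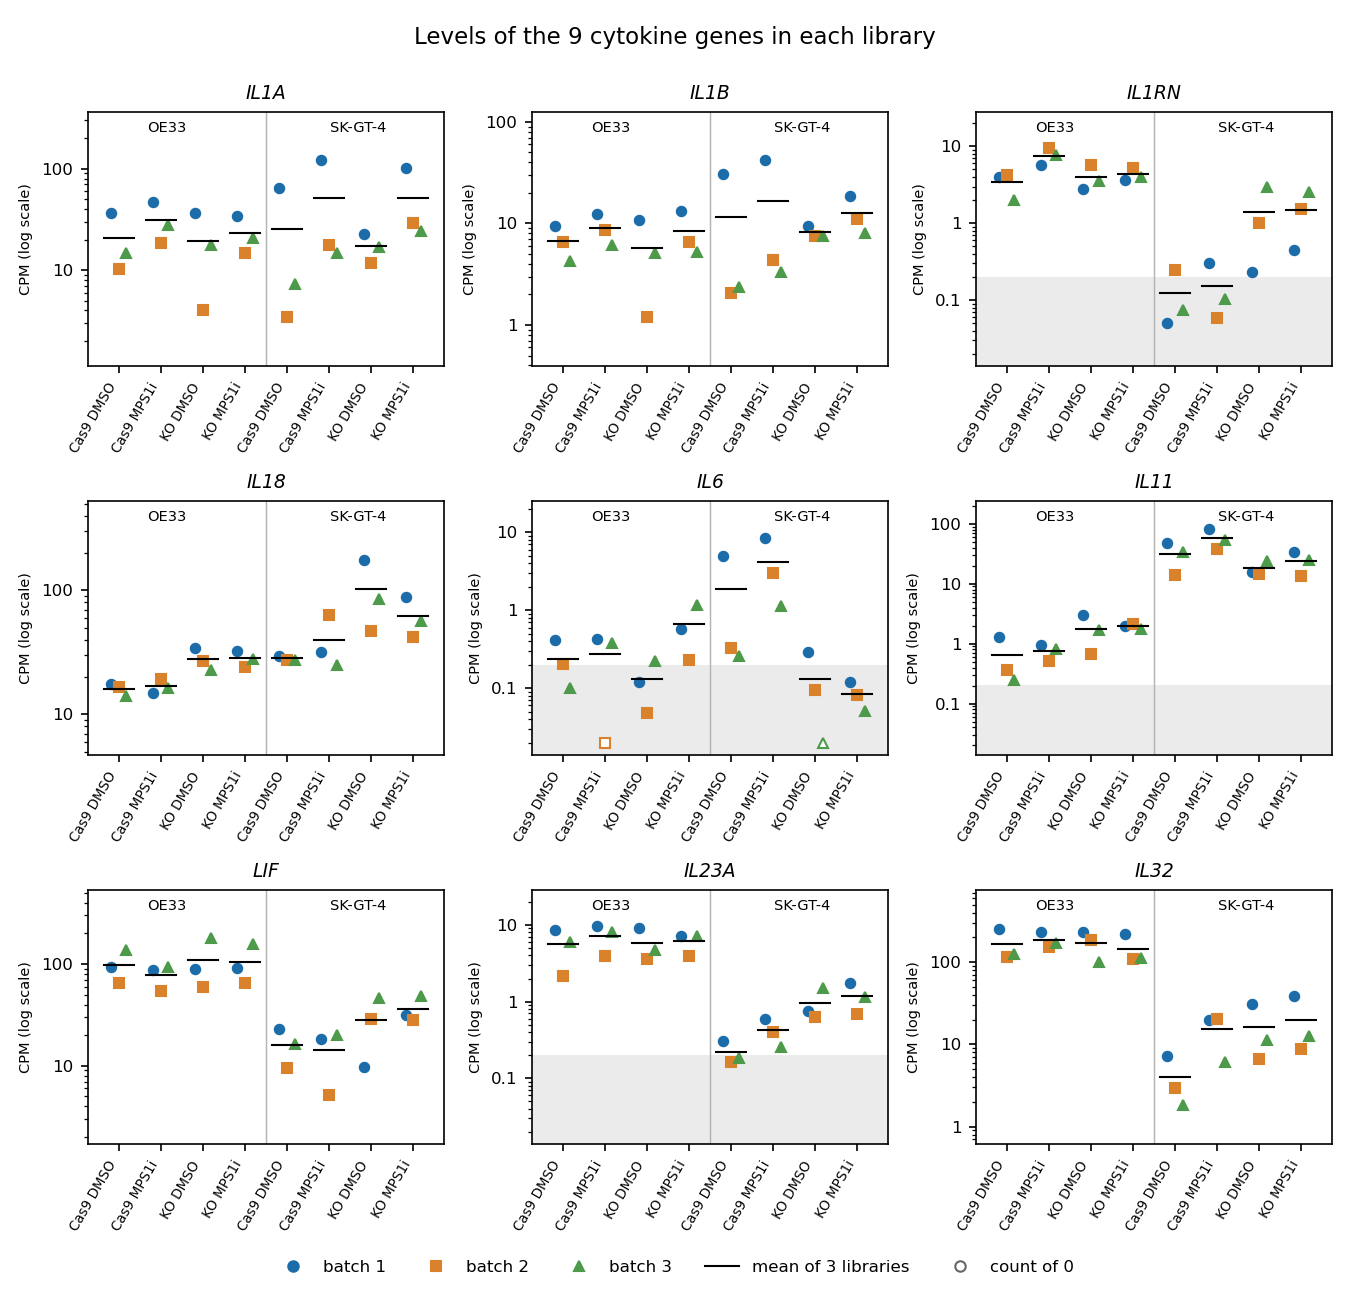
Level of each gene in each library, in CPM on a log axis, for the 4 groups of OE33 (left of the line) and of SK-GT-4 (right). Symbols are the 3 batches, bars the mean of 3 libraries, open symbols a count of 0 drawn at the bottom, and the grey band lies under 0.195 CPM, the highest level that 3 counts give in a library. IL32, LIF, IL23A and IL1RN sit higher in OE33, IL11 higher in SK-GT-4, and IL6 reaches 1 CPM or more in 5 libraries.

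Compared per kilobase of gene length over all 24 libraries, IL32 had the highest mean level (28.2 CPM per kb), followed by IL18 (15.4), LIF (15.3) and IL1A (14.1). IL11 (6.39 CPM per kb), IL1B (3.18) and IL23A (2.90) were lower, and IL1RN (0.863) and IL6 (0.456) lowest. IL6 was at or below 3 counts in 9 of the 24 libraries and IL1RN in 4, all of the latter SK-GT-4 Cas9. The other 7 genes were above 3 counts in every library.

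The first question was how the 9 genes responded to MPS1 inhibition in each clone. A gene is called where edgeR's quasi-likelihood test, with the batch as a block, gave an adjusted p no higher than 0.01. With MPS1i against DMSO 0 of 9 genes were called in OE33 Cas9 (background, the share of all genes tested that were called, 0.0049%), in OE33 KO (0%), in SK-GT-4 Cas9 (0%) or in SK-GT-4 KO cells (0%). At an unadjusted p under 0.05 stood 3 of 9 in OE33 Cas9 (background 6.95%), 1 in OE33 KO (6.95%), 4 in SK-GT-4 Cas9 (2.48%) and 1 in SK-GT-4 KO cells (1.39%), that is 1420, 1420, 566 and 317 of all genes. The median log2 fold change of the 9 genes was 0.33 in OE33 Cas9, 0.13 in OE33 KO, 0.94 in SK-GT-4 Cas9 and 0.28 in SK-GT-4 KO cells, while that of all genes was between 0.00 and 0.04. The difference of the MPS1i effect between Cas9 and KO cells was called for 0 of 9 genes in OE33 (background 0%) and for 0 of 9 in SK-GT-4 (0%). Before adjustment, p was under 0.05 for 2 of the 9 in OE33 (background 1.88%, 383 genes) and for 1 in SK-GT-4 (2.41%, 550 genes). Effects that did not reach an unadjusted p of 0.05 are given below only as a range.

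The second question was how the KO clone of each line differed from its Cas9 clone. IL18 was called higher in OE33 KO cells in DMSO and in MPS1i, the only called gene of the 9 in each (background 1.47% and 2.84%). In SK-GT-4, 0 of 9 were called in DMSO (background 1.76%) and 1 in MPS1i, IL6, which was lower in KO cells (1.41%). At an unadjusted p under 0.05 stood 2 genes in OE33 in DMSO (background 17.5%), 5 in OE33 in MPS1i (21.3%), 6 in SK-GT-4 in DMSO (17.5%, 3978 genes) and 5 in SK-GT-4 in MPS1i (18.4%). Between the lines, 5 of 9 genes were called in Cas9 cells in DMSO (background 24.4%) and 5 of 9 in KO cells in DMSO (24%). At an unadjusted p under 0.05 these were 7 (background 41.5%) and 6 (42.3%). The difference of the KO effect between the lines was called for 0 of 9 (background 0.981%), and 5 of 9 were under 0.05 before adjustment (12.3%, 3090 genes). The difference of the MPS1i effect in Cas9 cells between the lines was called for 0 of 9 (background 0%), and only IL32 was under 0.05 before adjustment (1.58%, 397 genes). Without batch 3, 0 of all genes were called between the SK-GT-4 clones in DMSO (400 with it) and 0 in MPS1i (321 with it).

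**Figure D2:**
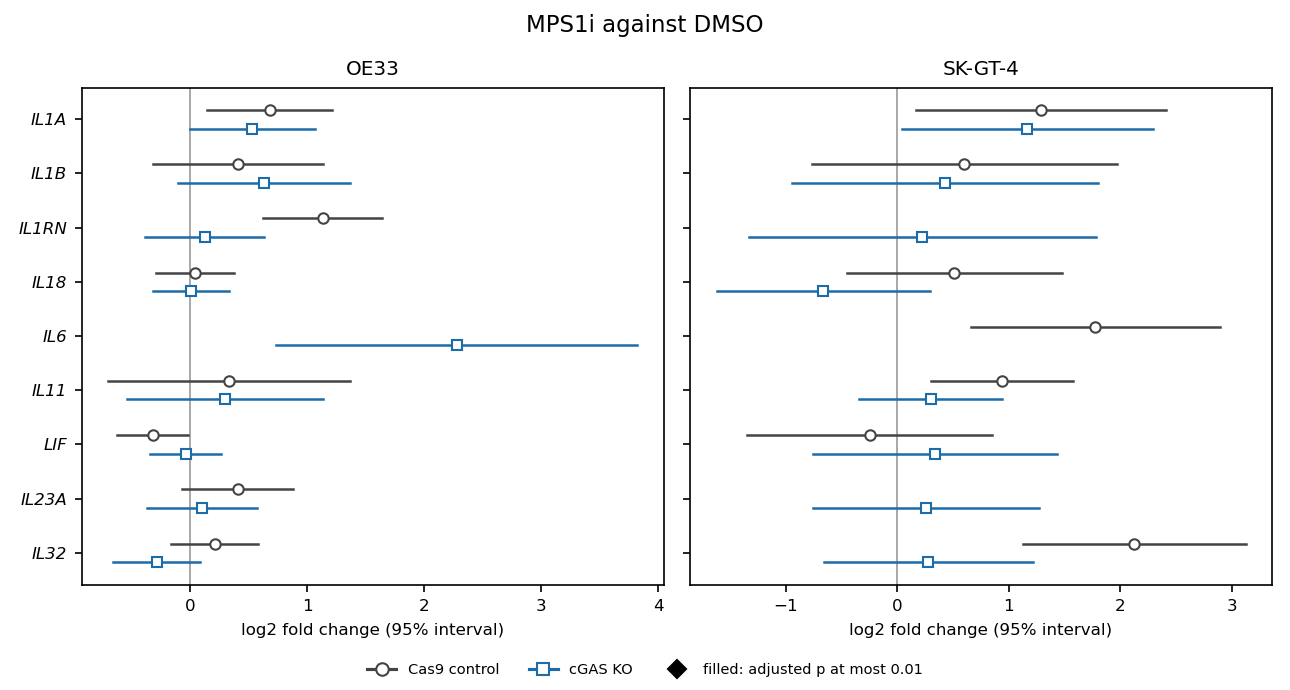
Log2 fold change of MPS1i against DMSO with its 95% interval, in Cas9 (circles) and cGAS KO cells (squares), for OE33 (left) and SK-GT-4 (right), with 3 libraries a group. Genes with a mean of 10 counts or fewer in both groups are left out. All symbols are open since no adjusted p was at most 0.01, and the intervals of IL1RN in OE33 Cas9 cells (0.62 to 1.64) and of IL32 in SK-GT-4 Cas9 cells (1.13 to 3.12) lie above 0.

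IL1A (ENSG00000115008, chromosome 2, 112773915 to 112784590, minus strand), which encodes the alarmin IL-1α, was at 36.9, 10.2 and 14.8 CPM in batches 1, 2 and 3 of OE33 Cas9 cells in DMSO and at 47.1, 18.5 and 28.1 in MPS1i. In OE33 KO cells it was at 36.4, 3.99 and 17.5 CPM in DMSO and at 34.4, 14.7 and 20.8 in MPS1i. Batch 1 was the highest of the 3 in each of these 4 groups, and the groups overlapped. In SK-GT-4 Cas9 cells IL1A was at 64.9, 3.41 and 7.24 CPM in DMSO and at 121.4, 17.6 and 14.8 in MPS1i, and in KO cells at 22.6, 11.8 and 16.9 in DMSO and at 100.6, 29.1 and 24.1 in MPS1i. Within a batch MPS1i was above DMSO in 3 of 3 batches in 3 of the 4 clones, and in 2 of 3 in OE33 KO cells. The KO libraries of SK-GT-4 did not overlap between treatments, the Cas9 libraries did. The log2 fold change with MPS1i was 0.68 (SE 0.25) in OE33 Cas9, 1.29 (SE 0.51) in SK-GT-4 Cas9 and 1.17 (SE 0.51) in SK-GT-4 KO cells, with adjusted p of 0.608, 0.981 and 0.966 (edgeR). In OE33 Cas9 cells it was called in 1 of 9 other analyses, the one without a filter on low counts (adjusted p 0.00567), in which 96 genes were called in place of 1. The batch held 68.1% of the sum of squares of log2 CPM of IL1A in OE33 cells and 58.2% in SK-GT-4 cells, the treatment 13.7% and 23.1% and the genotype 4.25% and 2.31%. None of the 8 group means in the order from 51.3 CPM (SK-GT-4 Cas9 in MPS1i) to 17.1 CPM (SK-GT-4 KO in DMSO) was separated from the next by its range.

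IL1B (ENSG00000125538, chromosome 2, 112829751 to 112836903, minus strand), the precursor of the secreted IL-1β, ranged from 1.19 CPM in OE33 KO in DMSO of batch 2 to 41.9 CPM in SK-GT-4 Cas9 in MPS1i of batch 1. It followed IL1A from library to library. After centring in each line, the Pearson correlation of log2 CPM of the 2 genes was 0.919 over 24 libraries, the highest for either among 11718 genes. This correlation, like those of the genes most like each member below, is given as a description, since the libraries share clones and batches. The library with the lowest IL1A in OE33, KO in DMSO of batch 2 (3.99 CPM), also had the lowest IL1B, and it is the library with the CGAS level of 15.6 CPM. The next genes were MAFF (r = 0.852), a small MAF transcription factor, and CSRNP1 (0.843) for IL1A, and CSRNP1 (0.823) and CA2 (0.805) for IL1B. The batch held 43.4% of the spread of IL1B in OE33 and 60% in SK-GT-4. IL1B had no effect with an unadjusted p under 0.05 in any comparison, and neighbours in the order of its 8 group means, from 16.5 to 5.71 CPM, overlapped throughout.

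**Figure D3:**
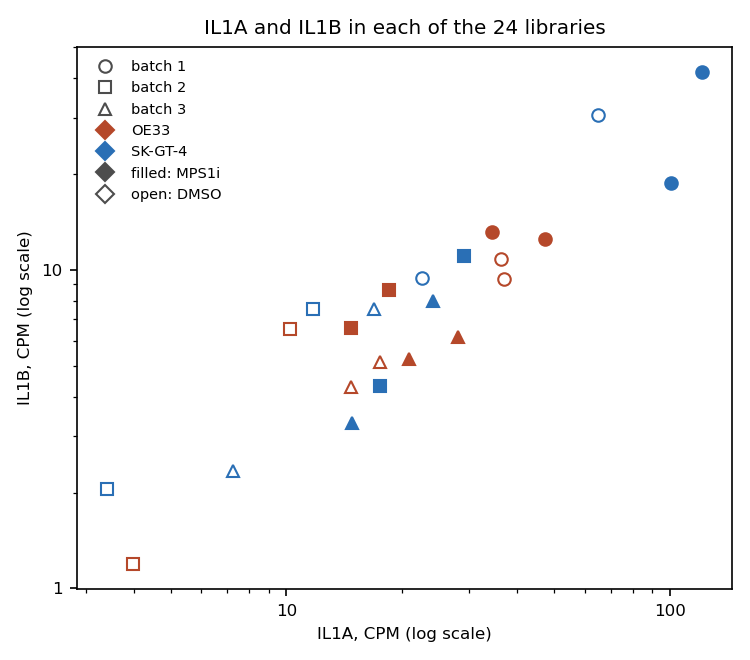
IL1A against IL1B in each of the 24 libraries, both in CPM on log axes. Colours are the lines, shapes the batches, and filled symbols MPS1i. The 3 libraries with the highest IL1A (64.9, 100.6 and 121.4 CPM) are SK-GT-4 libraries of batch 1, and the lowest of both genes in OE33 is KO in DMSO of batch 2.

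IL1RN (ENSG00000136689, chromosome 2, 113107214 to 113134016, plus strand), the receptor antagonist, had its highest levels in OE33 Cas9 cells in MPS1i. In OE33 Cas9 cells it was at 3.98, 4.21 and 2.02 CPM in DMSO (77, 82 and 40 counts) and at 5.69, 9.38 and 7.71 CPM in MPS1i (132, 144 and 142 counts). The 3 MPS1i libraries were all above the 3 DMSO libraries. In KO cells it was at 2.80, 5.66 and 3.53 CPM in DMSO and at 3.68, 5.27 and 3.97 in MPS1i, which overlapped. The log2 fold change with MPS1i in Cas9 cells was 1.13 (SE 0.24, 95% interval 0.62 to 1.64), a 2.19-fold higher level, with an adjusted p of 0.269 (edgeR). It lay between 0.81 and 1.503 in 9 other analyses, 2 of which called it: a block per genotype and batch (adjusted p 0.00256, where 93 genes were called in all) and no filter on low counts (0.000249). The difference to the KO cells was 1.01 (SE 0.34, 0.29 to 1.73) with an adjusted p of 1 in the test of the difference, and 0.88 without the KO library of batch 2 with CGAS at 15.6 CPM. IL1RN in OE33 KO cells was lower than in Cas9 cells under MPS1i by a log2 fold change of -0.83 (SE 0.24, adjusted p 0.0388), with no overlap between libraries, and in DMSO the 2 clones overlapped.

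In SK-GT-4 IL1RN was at 1, 6 and 2 counts in Cas9 cells in DMSO and at 7, 1 and 2 in MPS1i, so that no change could be read there. In the KO clone it was at 4, 21 and 55 counts in DMSO and at 11, 38 and 49 in MPS1i. The KO libraries were higher within each of the 3 batches in both treatments, and the ranges overlapped in DMSO only. Summed over libraries, KO exceeded Cas9 11.1-fold in DMSO (80 against 9 counts, exact Poisson 95% interval 5.58 to 25.2) and 8.57-fold in MPS1i (98 against 10 counts, 4.47 to 18.4), intervals that cover counting error only. The fitted log2 fold changes were 3.16 (SE 0.91, adjusted p 0.0804) and 2.76 (SE 0.89, adjusted p 0.114). Without batch 3, which held most of the KO counts, they were 1.94 (adjusted p 0.761) and 1.92 (0.653), and without batch 1 the value in MPS1i was 4.56 (0.0188). Mitochondrial transcripts took 1.21%, 5.66% and 11.3% of counts in the KO libraries of batches 1, 2 and 3 in DMSO and 1.64%, 8.56% and 7.83% in MPS1i, so that the batches with more IL1RN in KO cells were those with a higher share. Over the 12 SK-GT-4 libraries, which share clones and batches, the correlation of log2 CPM with the log2 share was 0.773 for IL1RN and -0.675 for IL6, and the part of this share in the values of both genes was not tested. The 3 genes most like IL1RN over 24 libraries were RIPK3 (r = 0.893), a kinase of necroptosis, DAPP1 (0.885) and MACC1 (0.879). Of its 8 group means only that of OE33 Cas9 in MPS1i (7.59 ± 1.84 CPM, SD, n = 3) was separated from the next, OE33 KO in MPS1i (4.31 ± 0.847), by its range.

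IL18 (ENSG00000150782, chromosome 11, 112143251 to 112164117, minus strand), which epithelial cells hold as a precursor, was called between the OE33 clones in both treatments. In OE33 Cas9 cells it was at 17.6, 16.6 and 14.2 CPM in DMSO and at 14.9, 19.2 and 16.4 in MPS1i. In OE33 KO cells it was at 34.6, 26.9 and 22.97 CPM in DMSO and at 32.7, 24.1 and 28.1 in MPS1i. Each of the 6 KO libraries was above each of the 6 Cas9 libraries. The log2 fold change of KO against Cas9 was 0.77 (SE 0.16, 0.44 to 1.10, 1.70-fold, adjusted p 0.00976) in DMSO and 0.73 (SE 0.16, 0.40 to 1.06, 1.66-fold, adjusted p 0.0091) in MPS1i (edgeR). Both adjusted p lay close to the threshold. The call in DMSO held in 3 of 9 other analyses and that in MPS1i in 2 of 8, with log2 fold changes of 0.67 to 0.85 and 0.53 to 0.92. Leaving out any 1 batch ended the call in both, with adjusted p of 0.0199 to 0.166 in DMSO and 0.0123 to 0.158 in MPS1i. Without the KO library of batch 2 with CGAS at 15.6 CPM, the call in DMSO held (adjusted p 0.00479). CD14, a monocyte marker, was also called higher in OE33 KO cells in DMSO, with mean levels of 4.82 against 2.00 CPM (adjusted p 0.00184 without that library). Of the 7 leukocyte markers 4 could be tested there, and CD14 was the only 1 with a log2 fold change above 0 (median -0.17). The part of CD14 in the IL18 values was not tested. The genotype accounted for 81.6% of the sum of squares of IL18 in OE33.

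In SK-GT-4 Cas9 cells IL18 was at 29.7, 27.5 and 27.7 CPM in DMSO and at 31.7, 63.5 and 24.9 in MPS1i. In KO cells it was at 176.3, 47.2 and 85.8 CPM in DMSO and at 88.7, 42.0 and 56.2 in MPS1i. The KO libraries were all above the Cas9 libraries in DMSO and overlapped them in MPS1i. The log2 fold change in DMSO was 1.75 (SE 0.45, 0.75 to 2.74) with an adjusted p of 0.0509 (edgeR). Of 9 other analyses 2 called it, DESeq2 (adjusted p 0.00438) and that without batch 2 (0.00559). Over the 9 the log2 fold change lay between 1.27 and 2.11, with adjusted p up to 0.559. It was 1.30 (adjusted p 0.107) without the KO library of batch 1, the one with the TMM factor of 0.770. The genes most like IL18 were DMKN (r = 0.950), a gene of the epidermis, AP003068.2 (0.949) and FAM177A1 (0.933).

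**Figure D4:**
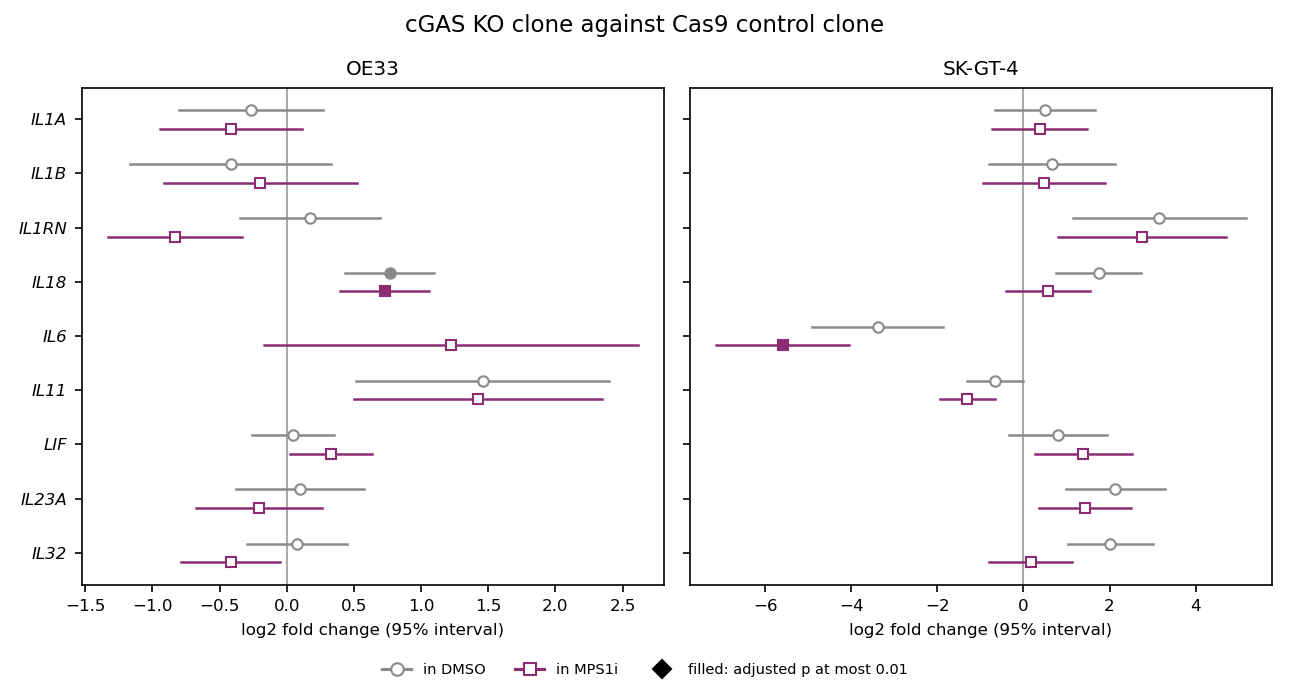
Log2 fold change of the cGAS KO clone against the Cas9 clone with its 95% interval, in DMSO (circles) and in MPS1i (squares), for OE33 (left) and SK-GT-4 (right, wider axis), with 3 libraries a group. Genes with a mean of 10 counts or fewer in both groups are left out, and filled symbols have an adjusted p of at most 0.01. IL18 in OE33 (0.77 and 0.73) and IL6 in SK-GT-4 in MPS1i (-5.59) are filled.

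IL6 (ENSG00000136244, chromosome 7, 22725884 to 22732002, plus strand), the founding gp130 cytokine, was measurable mainly in SK-GT-4 Cas9 cells. There it was at 97, 8 and 7 counts in DMSO (4.95, 0.329 and 0.260 CPM) and at 196, 52 and 22 counts in MPS1i (8.43, 3.00 and 1.13 CPM). In SK-GT-4 KO cells it was at 5, 2 and 0 counts in DMSO and at 3, 2 and 1 counts in MPS1i. Every KO library in MPS1i was at or below the floor, and every Cas9 library in MPS1i above it. Summed over libraries, Cas9 exceeded KO 51.5-fold in MPS1i (270 against 6 counts, exact Poisson 95% interval 23.3 to 141.5) and 12.8-fold in DMSO (112 against 7 counts, 6.01 to 32.5), where the ranges overlapped. The test of KO against Cas9 gave an adjusted p of 0.00163 in MPS1i and of 0.0174 in DMSO (edgeR, log2 fold changes -5.59 and -3.39). Without batch 1, which held 97 of the 112 Cas9 counts in DMSO, the latter was -2.56 (adjusted p 0.212), and without batch 3 -3.29 (0.349). The mitochondrial share was also higher in KO than in Cas9 libraries in batches 2 and 3, as described for IL1RN. The call in MPS1i held in 6 of 9 other analyses, with fitted log2 fold changes of -5.83 to -4.81, and was lost without batch 1 (adjusted p 0.0111), which held most of the counts, without batch 3 (0.142) or without the batch block (0.0364). In Cas9 cells MPS1i was above DMSO within 3 of 3 batches, with a log2 fold change of 1.78 (SE 0.51, 0.66 to 2.89) and an adjusted p of 0.981, and the ranges overlapped. At these counts the KO cells allow no reading of a change with MPS1i.

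In OE33 IL6 stayed at 0 to 22 counts. Cas9 cells had 8, 4 and 2 counts in DMSO and 10, 0 and 7 in MPS1i, and KO cells 3, 1 and 4 in DMSO and 12, 5 and 22 in MPS1i. The KO libraries did not overlap between treatments, with 39 counts in MPS1i against 8 in DMSO in sum (5.07-fold, exact Poisson 95% interval 2.34 to 12.6). The fitted log2 fold change was 2.28 (SE 0.73, adjusted p 0.59), and the difference to the Cas9 cells, -2.24 (SE 1.06), had an adjusted p of 1. Without the KO library with CGAS at 15.6 CPM they were 2.27 and -2.20. The table also lists STEAP1B and AC073072.1 on the opposite strand over IL6, with at most 6 and 5 counts in a library. The genes most like IL6 were RND3 (r = 0.874), GPCPD1 (0.845) and DLX2 (0.829), with IL6 at or below 3 counts in 9 of the 24 libraries. The genotype held 60.4% of the sum of squares of IL6 in SK-GT-4, where each genotype is 1 clone. Since the strand setting of the counting is not given in the sources used here, reads of genes on the 2 strands cannot be told apart.

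IL11 (ENSG00000095752, chromosome 19, 55364389 to 55370463, minus strand), a gp130 cytokine known from fibrosis and cancer, was far higher in SK-GT-4. In SK-GT-4 Cas9 cells it was at 48.1, 13.8 and 33.8 CPM in DMSO and at 80.7, 38.7 and 53.2 in MPS1i, and in KO cells at 16.0, 14.5 and 23.6 in DMSO and at 33.7, 13.4 and 24.7 in MPS1i. In OE33 it was at 0.252 to 1.29 CPM in Cas9 and at 0.666 to 2.96 in KO libraries. Every SK-GT-4 library was above every OE33 library. OE33 was lower by a log2 fold change of -5.63 (SE 0.43, adjusted p 3.22e-10) in Cas9 cells and of -3.51 (SE 0.38, adjusted p 1e-07) in KO cells in DMSO, and both calls held in every other analysis run (8 and 10). With MPS1i the log2 fold change in SK-GT-4 Cas9 cells was 0.94 (SE 0.29, 0.30 to 1.58, adjusted p 0.981), above DMSO in 3 of 3 batches. KO and Cas9 libraries did not overlap in MPS1i in either line, and overlapped in DMSO in both. The KO effect had opposite signs in the 2 lines. KO against Cas9 was 1.46 (SE 0.44, adjusted p 0.0741) in DMSO and 1.42 (SE 0.44, adjusted p 0.0553) in MPS1i in OE33, and -0.66 (SE 0.29, adjusted p 0.272) and -1.30 (SE 0.29, adjusted p 0.03) for the SK-GT-4 clones. The difference of the KO effect in DMSO between the lines was 2.11 (SE 0.54, 1.00 to 3.22) with an adjusted p of 0.0361 (edgeR), and 2 of 10 other analyses called it. Without the OE33 KO library of batch 2 with CGAS at 15.6 CPM the KO effect in OE33 in DMSO was 1.79 and was called (adjusted p 0.00911). The genes most like IL11 were PMAIP1 (r = 0.841), which encodes the cell death protein NOXA, CAMK1 (0.829) and DCLK1 (0.812).

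LIF (ENSG00000128342, chromosome 22, 30240447 to 30246851, minus strand), the third gp130 cytokine, was higher in OE33. In OE33 Cas9 cells it was at 93.8, 65.2 and 136 CPM in DMSO and at 87.6, 53.8 and 92.5 in MPS1i, and in KO cells at 89.4, 59.9 and 178.8 in DMSO and at 90.8, 64.5 and 158.1 in MPS1i. Batch 2 was the lowest and batch 3 the highest in each group, and the batch held 83.1% of the sum of squares. Batch 3 of OE33 is also the batch with mitochondrial transcripts at 5.10% to 8.94%, whose part in this was not tested. In SK-GT-4 LIF was at 5.14 to 22.8 CPM in Cas9 and at 9.78 to 48.2 in KO libraries. OE33 exceeded SK-GT-4 by a log2 fold change of 2.57 (SE 0.39, adjusted p 1.02e-05) in Cas9 and of 1.84 (SE 0.38, adjusted p 0.000446) in KO cells in DMSO, the latter not called without batch 3 (adjusted p 0.0387). KO exceeded Cas9 in MPS1i in SK-GT-4 by 1.40 (SE 0.51, adjusted p 0.165), with no overlap between libraries, and in OE33 by 0.33 (SE 0.15, adjusted p 0.195). Over the SK-GT-4 libraries the correlation of LIF with the mitochondrial share was 0.575, and the part of this share there was not tested. LIF was the only gene of the 9 with a negative log2 fold change with MPS1i in OE33 Cas9 cells, -0.32 (SE 0.14, adjusted p 0.701), lower in 3 of 3 batches. The genes most like it were ATL2 (r = 0.933), CD274 (0.925), which encodes PD-L1, and SLC35F2 (0.923).

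IL23A (ENSG00000110944, chromosome 12, 56334174 to 56340410, plus strand) was at 2.15 to 9.58 CPM in OE33 and at 0.164 to 1.75 CPM in SK-GT-4. The lines did not overlap. OE33 Cas9 cells exceeded SK-GT-4 Cas9 cells in DMSO by a log2 fold change of 4.55 (SE 0.42, adjusted p 7.49e-09) and KO cells by 2.52 (SE 0.36, adjusted p 6.41e-06), calls that held in every other analysis run (8 and 10). In SK-GT-4 the gene was at 6, 4 and 5 counts in Cas9 cells in DMSO and at 13, 13 and 28 in KO cells, and in MPS1i at 14, 7 and 5 against 43, 17 and 22 counts. The KO libraries were above the Cas9 libraries in both treatments. KO against Cas9 was 2.13 (SE 0.53, 0.98 to 3.29, adjusted p 0.0412) in DMSO and 1.44 (SE 0.49, adjusted p 0.134) in MPS1i. IL12B, which encodes the p40 partner chain of IL-23, had a count above 0 in 1 of the 24 libraries, at 0.0511 CPM. In OE33 the batch held 80.4% of the sum of squares of IL23A, with batch 2 the lowest in each group. The genes most like IL23A were MMP9 (r = 0.889), C15orf48 (0.886) and CSF2 (0.859), the last of which encodes GM-CSF.

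IL32 (ENSG00000008517, chromosome 16, 3065297 to 3082192, plus strand), the most abundant of the 9 per kilobase, was at 100.1 to 252.5 CPM in OE33 and at 1.86 to 38.6 CPM in SK-GT-4. OE33 exceeded SK-GT-4 in DMSO by a log2 fold change of 5.47 (SE 0.43, 44.4-fold, adjusted p 5.22e-10) in Cas9 cells and of 3.56 (SE 0.39, 11.8-fold, adjusted p 1.35e-07) in KO cells. In SK-GT-4 Cas9 cells IL32 was at 7.15, 2.96 and 1.86 CPM in DMSO and at 19.7, 20.6 and 6.18 in MPS1i. MPS1i was above DMSO within each batch, and the lowest MPS1i library lay under the highest DMSO library. The log2 fold change was 2.13 (SE 0.45, 1.13 to 3.12, 4.37-fold) with an adjusted p of 0.981 (edgeR), the largest with MPS1i in Cas9 cells among the 9 genes in either line, and none of 10 other analyses called it. Without the MPS1i library of batch 2 it was 1.31, and the difference to the KO cells described next was 1.04 in place of 1.85. In SK-GT-4 KO cells IL32 was at 31.4, 6.69 and 11.2 CPM in DMSO and at 38.6, 8.86 and 12.6 in MPS1i, and the test of the difference between the clones gave 1.85 (SE 0.62, 0.50 to 3.20), larger in Cas9 cells, with an adjusted p of 0.823.

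The KO cells of SK-GT-4 had more IL32 than its Cas9 cells within each batch in DMSO. KO against Cas9 was 2.02 (SE 0.45, 1.02 to 3.01, 4.04-fold, adjusted p 0.0263) in DMSO. Of 9 other analyses 3 called it, with log2 fold changes of 1.69 to 2.35 and adjusted p up to 0.505. The highest KO library in DMSO (31.4 CPM) was that of batch 1, with the TMM factor of 0.770. In MPS1i the unadjusted p was not under 0.05, and in batch 2 the KO library (8.86 CPM) lay under the Cas9 library (20.6). The ranges overlapped in DMSO and in MPS1i. In OE33 Cas9 cells IL32 was at 252.5, 115.8 and 125.2 CPM in DMSO and at 229.3, 153.9 and 168.8 in MPS1i, and in KO cells at 232.7, 186.4 and 100.1 in DMSO and at 217.2, 109 and 111.1 in MPS1i, groups that all overlapped. KO against Cas9 in MPS1i in OE33 was -0.42 (SE 0.18, adjusted p 0.172), lower in 3 of 3 batches. The difference of the MPS1i effect in Cas9 cells between OE33 and SK-GT-4 was -1.84 (SE 0.51, -2.89 to -0.78) with an adjusted p of 1. The genes most like IL32 were TRIM16 (r = 0.889), NFKBIE (0.883), which encodes an inhibitor of NF-κB, and CSF2 (0.869).

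**Figure D5:**
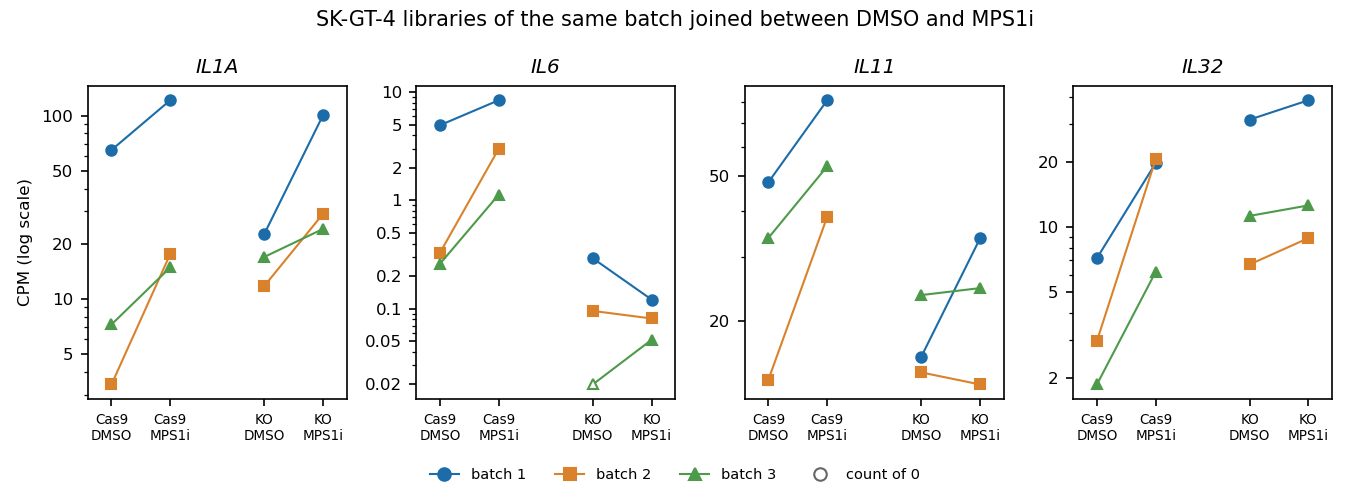
Levels of IL1A, IL6, IL11 and IL32 in SK-GT-4 libraries, in CPM on log axes, with the DMSO and MPS1i library of the same batch joined, for Cas9 cells (left of each panel) and cGAS KO cells (right). Open symbols are counts of 0 drawn at the bottom. The 4 genes are those of the 9 with an unadjusted p under 0.05 for MPS1i against DMSO in SK-GT-4 Cas9 cells (edgeR). Since they were chosen on these values, the upward slope of all 12 lines in Cas9 cells is no separate support. LIF, not drawn, had a mean of 16.15 CPM in DMSO and 14.46 in MPS1i in Cas9 cells. In KO cells the lines of IL1A and IL32 also slope up in each batch, and IL6 lies at 5 counts or fewer.

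Effects with an unadjusted p of 0.05 or more covered these ranges of the log2 fold change. With MPS1i they ran from 0.04 to 0.41 over 5 genes in OE33 Cas9, from -0.29 to 0.63 over 8 in OE33 KO, from -0.25 to 0.60 over 3 in SK-GT-4 Cas9 and from -0.67 to 0.43 over 7 in SK-GT-4 KO cells. For KO against Cas9 they ran from -0.42 to 0.17 over 6 genes in OE33 in DMSO, from -0.41 to 1.22 over 4 in OE33 in MPS1i, from 0.51 to 0.81 over 3 in SK-GT-4 in DMSO and from 0.17 to 0.57 over 4 in SK-GT-4 in MPS1i. Between the lines IL1A and IL1B covered -0.05 to 0.30 in Cas9 and -0.88 to -0.23 in KO cells. IL6 was lower in OE33 than in SK-GT-4 Cas9 cells by -2.39 (SE 0.86, adjusted p 0.0354), and by -0.92 (adjusted p 0.581) without batch 1. IL1RN was higher in OE33 than in SK-GT-4 KO cells by 1.59 (SE 0.57, adjusted p 0.0325). OE33 Cas9 cells also exceeded SK-GT-4 Cas9 cells in DMSO in IL1RN, by 4.81 (SE 0.73, adjusted p 1.17e-05), a call held in 8 of 8 other analyses. IL18 was lower in OE33 than in SK-GT-4 by -1.83 (SE 0.35, adjusted p 0.000208) in KO cells and by -0.82 (SE 0.34, adjusted p 0.0671) in Cas9 cells, the former not called without batch 3 (adjusted p 0.0262). The median of all genes between the lines was -0.14 in Cas9 cells and -0.16 in KO cells. The difference of the KO effect in DMSO, OE33 minus SK-GT-4, was -3.22 (SE 0.93, adjusted p 0.0745) for IL1RN (-2.00 without batch 3), -2.03 (SE 0.55, adjusted p 0.0523) for IL23A, -1.91 (SE 0.51, adjusted p 0.0517) for IL32 and -1.005 (SE 0.48, adjusted p 0.397) for IL18. The 5 epithelial markers were all called higher in OE33 Cas9 than in SK-GT-4 Cas9 cells in DMSO (background 24.4%). This stands beside these differences between lines, and its part in them was not tested.

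The KO and Cas9 clones of SK-GT-4 also differed in epithelial markers. CDH1, which encodes E-cadherin, was at 3.83 to 13.8 CPM in Cas9 and at 21.4 to 202 CPM in KO libraries in DMSO (log2 fold change 3.53, adjusted p 0.00202), and EPCAM at 45.1 to 48.6 and at 205.5 to 429.3 CPM (2.71, adjusted p 0.00392). The fitted log2 fold changes of all 5 epithelial markers were above 0 in DMSO and in MPS1i, with 2 and 1 called (background 1.76% and 1.41%). The sum of 7 stromal markers was 38.1 to 65.8 CPM in Cas9 and 10.1 to 85.2 in KO libraries in DMSO, and the sum of 7 leukocyte markers 10.1 to 27.0 and 6.99 to 10.6. In OE33 the sum of the epithelial markers overlapped between the clones in both treatments. The part of these clone differences in the values of IL6, IL11, LIF, IL18, IL23A, IL32 and IL1RN was not tested.

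Of 61 other genes of these pathways in 8 lists, 54 could be tested for OE33 and 47 for SK-GT-4. With MPS1i 0 were called in any of the 4 clones (background 0% to 0.0049%). Among receptors of the IL-1 family, IL1R2, a decoy receptor for IL-1, was at 0.0822 to 0.297 CPM in SK-GT-4 Cas9 and at 6.79 to 14.8 CPM in KO cells in DMSO (log2 fold change 5.88, SE 0.33, adjusted p 7.71e-06), and at 10.97 to 27.7 CPM in OE33 in DMSO. IL1RL1, the receptor of IL-33, was also called higher in SK-GT-4 KO cells in DMSO (2.47, SE 0.40, adjusted p 0.00557). With it, 2 of 8 tested genes of that list were called there (background 1.76%). Among signalling genes, IRAK2, a kinase below IL-1 receptors, was lower in SK-GT-4 KO cells in DMSO (-1.80, SE 0.28, adjusted p 0.00485), and IRAK3, an inhibitory relative, was called higher in OE33 KO cells (adjusted p 0.00305). Each was 1 of 10 tested (background in DMSO 1.76% in SK-GT-4 and 1.47% in OE33). IRAK3 was at 37, 1 and 29 counts in batches 1, 2 and 3 of OE33 KO cells in DMSO and at 1, 0 and 0 in Cas9 cells, so that the KO library of batch 2 lay under the floor. CARD8, an inflammasome sensor, was the called gene of 10 in that list in OE33 KO cells (1.10, SE 0.20, adjusted p 0.00368). Of 7 gp130 signalling genes SOCS3, the feedback inhibitor of this pathway, was called in OE33 KO cells (0.84, SE 0.16, adjusted p 0.00739). Without the KO library with CGAS at 15.6 CPM, IRAK3, CARD8 and SOCS3 were still called in DMSO (adjusted p 4.9e-05, 0.00143 and 0.00385). IL36RN, the antagonist of IL-36, was at 0 CPM in SK-GT-4 Cas9 cells in DMSO and at a mean of 3.11 CPM in OE33. gp130 itself (IL6ST) was expressed in every group, at 41.0 to 202 CPM, and CASP1, the protease that cuts IL-1β and IL-18, at 0.380 to 4.36 CPM in OE33 and at 0 to 0.430 CPM in SK-GT-4. KO against Cas9 in DMSO gave 3 genes called higher and 0 lower of the 54 in OE33 (background 1.47%), with a median of 0.01. Between OE33 and SK-GT-4 Cas9 cells in DMSO 15 of 55 were called higher and 7 lower (background 24.4% in either direction).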

How the data were processed

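RNA was poly(A)-selected and sequenced by the authors as paired reads. The deposited table holds raw read counts per gene for 24 libraries, and gene lengths in bases. The submitters' processing notes name HISAT2 2.0.5, featureCounts 1.5.0 and GRCh38. The annotation release, strand setting and treatment of multi-mapping reads are not given in the sources used here. The members and gene lists were chosen with earlier results of these data known.

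Genes with a total of at least 5 counts and a count above 0 in at least 4 libraries were kept, in each line (20426 for OE33, 22782 for SK-GT-4) and over all 24 libraries (25181, for comparisons between lines). edgeR 4.0.16 (R 4.3.3) fitted groups plus batch with TMM factors, the quasi-likelihood test and Benjamini-Hochberg adjustment over all genes kept, called at 0.01. The 9 genes are all named. Their effects are given where the mean count of a compared group exceeded 10 and the unadjusted p was under 0.05, otherwise as counts or ranges, and at most 3 called genes a list and comparison. SE is the log2 fold change divided by the square root of F. CPM is relative to the total of the kept genes scaled by TMM factors over 24 libraries. Depth was 15561268 to 25284177 counts, and counting intervals cover counting error only. Likeness is the Pearson correlation of log2 CPM (prior count 2) centred in each line, among genes kept in both lines at a mean of at least 1 CPM in each.

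The labels give the replicate number as the batch, which pairs samples. Same-batch libraries of a genotype deviated together from their group means (median correlation 0.339 for OE33, 0.249 for SK-GT-4). Between genotypes the medians were 0.263 and 0.144, the lowest -0.48 in SK-GT-4. Alternatives were DESeq2 1.42.0, its size factors, a looser and a stricter filter, fits without the block or with batches numbered per genotype, an adjusted p of 0.05, and leaving out each batch or 1 library. Results for some listed genes are not reported here.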

Additional observations from a re-analysis of the deposited data

How the results depend on the processing

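No effect of the 9 genes that is given with its value changed sign under the alternatives run. Of their 448 alternative values, 406 kept their side of the threshold, 25 passed it newly and 17 no longer passed it. With MPS1i in OE33 Cas9 cells the number of the 9 genes called went from 0 to 2 without a filter and to 1 with a replicate block per genotype and batch. For KO against Cas9 in OE33 it went from 1 to 0 in both treatments with DESeq2 size factors, with edgeR's filterByExpr, with no replicate block and without any 1 of the 3 batches, to 2 in DMSO and 3 in MPS1i without a filter, to 2 in MPS1i at an adjusted p of 0.05, and leaving out 1 batch or 1 library gave 0 to 2 in DMSO and 0 to 0 in MPS1i. For SK-GT-4 in DMSO it went from 0 to 2 without a filter, 4 with DESeq2, 3 at 0.05 and 0 to 2 with 1 batch or library left out. For SK-GT-4 in MPS1i it went from 1 to 2 with DESeq2 and at 0.05, to 0 with no replicate block, and to 0 to 1 with 1 batch or library left out. For the difference of the KO effect between the lines it went from 0 to 3 without a filter, 1 with DESeq2, 1 at 0.05 and 0 to 1 with 1 batch or library left out. The cause of these shifts was not tested.

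Counts over all genes moved more. With MPS1i the 1 gene called in OE33 Cas9 cells became 96 without a filter, 22 with DESeq2, 93 with the replicate block per genotype and batch and 0 with filterByExpr, with no replicate block or without batch 1 or 3. The 0 in OE33 KO cells became 152, 6 and 101 under the first 3 of these, the 0 for the difference between the OE33 clones 28 without a filter, and the 0 in SK-GT-4 Cas9 cells 1 with DESeq2. For KO against Cas9 the 300 and 580 genes in OE33 ranged from 11 to 1046 and from 17 to 1631, with 15 and 17 with no replicate block, and the 400 and 321 in SK-GT-4 from 0 to 1495 and from 0 to 1450, with 191 and 163 with no replicate block. The 247 genes of the difference of the KO effect ranged from 11 to 694 (102 with no replicate block), and the 6134 and 6035 between the lines from 2903 to 8435 and from 2568 to 8606. The block changed no other count of called cytokine genes. IL6 and IL1RN are limited by depth in SK-GT-4, and IL6 also in OE33, with 3 counts or fewer in 9 and 4 libraries.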
